A study of Sus scrofa with 2 samples.

Results

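The cells described here are the VCAM1-high, non-cycling cells of cultured pig adipose-derived stem cells (ADSCs), the fibroblast-like progenitors that grow out of digested fat. A pool was formed in each library from barcodes with at least 5000 unique molecular identifiers (UMIs, each marking 1 captured RNA molecule) and no UMI of the cycle genes TOP2A, CDK1, CCNB1, PLK1 and MKI67. Members were chosen by their measured VCAM1 level: the 5% of the pool with the highest share of VCAM1 among their UMIs were called VCAM1-high. This gave 225 cells of 4495 in the pool of library 1 and 281 of 5619 in that of library 2, or 506 of all 25207 barcodes in the files. They were set against the VCAM1-zero cells, which are the 2843 and 3689 pool cells with no VCAM1 UMI. The remaining 1427 and 1649 pool cells had some VCAM1 but less than the members, and are called other VCAM1-detected cells.

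ADSCs came from fat of the chest of Bama miniature pigs described as healthy, with no treatment and no further genotype given, and were grown for 3 generations in at most 14 days. The series title places the work in the setting of keloids, scars that outgrow their wound, and of functional subgroups of ADSCs. Both libraries belong to 1 group and were made with droplet 3ʹ chemistry, and the labels do not say whether they came from separate animals or cultures. The p-values below therefore apply only to classes of cells in these 2 libraries, whose differences may be technical. They set each difference against a spread pooled over all genes and do not measure how well the libraries agree for a single gene.

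VCAM1 is a cell-surface protein of the immunoglobulin superfamily. It is best known on inflamed endothelium, where leukocytes hold on to it through the integrin VLA-4 (ITGA4 with ITGB1). Stromal cells also carry it: in mouse and human it marks stromal cells that organise lymph nodes, bone marrow stroma that retains blood cell precursors, and fibroblasts stimulated by TNF or IL-1 through NF-kB. CXCL14, the second gene named as a marker of these cells, encodes a secreted chemokine made by fibroblasts and epithelia. VCAM1 lies on chromosome 4 at 117496914-117511211 and CXCL14 on chromosome 2 at 137803988-137813118 in the RefSeq annotation of Sscrofa11.1, the build that the submitters name.

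VCAM1 chose the cells, so its levels are a description. In counts per 1000000 UMIs (CPM) of the summed cells, VCAM1 stood at 0 in VCAM1-zero cells, at 85.8 and 86.0 CPM in other VCAM1-detected cells and at 340 and 322 CPM in VCAM1-high cells of libraries 1 and 2. The limit was nearly the same in both libraries. The last member of library 1 had 2.26 VCAM1 UMIs per 10000 UMIs (4 of 17704), and the first cell outside it also had 2.26 (7 of 31027). In library 2 the last member had 2.25 per 10000 (10 of 44438), and the first cell outside it also had 2.25 (6 of 26683). Cells thus lay close together on both sides of the limit. Members held 2 to 27 VCAM1 UMIs in library 1 and 2 to 29 in library 2, with a median of 6 in each. At this depth 53 members of library 1 (23.6%) and 64 of library 2 (22.8%) rested on 3 UMIs or fewer. With each barcode's UMIs drawn down at random to 5000, 30 and 43 members kept no VCAM1 UMI. The class is therefore a range cut from a thinly counted measure, and whether it holds a separate type of cell was not tested. Its members held 34.3% and 36.2% of all VCAM1 UMIs of their pools.

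Members were somewhat deeper than the cells they were set against. The median was 17858 and 20971 UMIs in VCAM1-high cells, against 16551 and 15129 in VCAM1-zero cells. Thinned to 5000 UMIs, members had a median of 1970 and 1953 genes and VCAM1-zero cells 1974 and 1995. Ribosomal protein genes took a median of 27.5% and 28.0% of UMIs in VCAM1-high cells, against 26.8% and 26.8% in VCAM1-zero cells. The whole files hold 211527905 and 246316928 UMIs. The libraries shared 46 barcode sequences, carried by 1 and 2 members, and none of these was a member in both. No doublets were removed.

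The cells carried genes of stromal cells, though not all of them at a high level. COL1A2, a chain of type I collagen, had 2861 and 4180 CPM in VCAM1-high cells, against 2261 and 3351 CPM in VCAM1-zero cells. THY1, the surface protein CD90 used to define mesenchymal stromal cells, had 454 and 349 CPM in VCAM1-high cells, against 420 and 372 CPM in VCAM1-zero cells, and did not differ beyond its error (log2 difference 0.05 ± 0.05 SE). PDGFRA, a growth factor receptor of fibroblast progenitors, had 155 and 226 CPM in VCAM1-high cells, against 122 and 154 CPM in VCAM1-zero cells. PDGFRB, COL1A1, COL3A1, DCN, LUM and ENG also stood higher in VCAM1-high cells of both libraries. CD44 went the other way, at 168 and 117 CPM in VCAM1-high cells, against 212 and 173 CPM in VCAM1-zero cells. NT5E (CD73) was scarce and also went the other way, at 3.97 and 4.22 CPM in VCAM1-high cells, against 5.94 and 7.06 CPM in VCAM1-zero cells. Several defining markers of other cell types were at 0 in VCAM1-high cells, while other markers of the same lists were present, as given further on. The leukocyte gene PTPRC, the endothelial genes CDH5, KDR, TIE1 and CLDN5, the mural cell gene RGS5 and the muscle precursor genes MYF5 and MYOD1 had no UMI in the members of either library.

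To find what else set the members apart, UMIs were summed per library and class, and VCAM1-high sums were compared with VCAM1-zero sums by edgeR's quasi-likelihood test with the library as a block. Calls required an adjusted p under 0.05 by the Benjamini-Hochberg method, a log2 difference of at least 0.5 in size and the same sign in both libraries. VCAM1 and the 5 cycle genes of the rule were left out. Of 15061 genes tested, 289 were called higher (1.92%) and 409 lower (2.72%) in VCAM1-high cells, 4.63% in all. Among the 7815 genes at 10 CPM or more, 197 were higher (2.52%) and 150 lower (1.92%), 4.44% in all. Scarcer genes could pass the filter on low counts through 1 class where the other alone would not have sufficed. Lowered genes such as ITGA4, ROBO4, CCL17, SAA3, SLA-DMB, ACTG2 and OCLN did so through VCAM1-zero cells. The raised MGP did so through VCAM1-high cells. Such calls lean on how the gene entered the test. With 4 sums the test leaves 1 residual degree of freedom and takes its spread from all genes together, so very small p-values and SEs rest on that pooling. No gene was called when the difference between the libraries was not removed. Of the 15061 genes 716 then had an unadjusted p under 0.05, a share no larger than that limit alone would give without any difference. DESeq2, with the library as a block, called 158 higher and 93 lower.

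The genes most raised in VCAM1-high cells were ALDH1A3, GPM6B, ANGPTL4, DHRS3 and BMPER, and the chemokine CXCL14 was also among the 15 called genes at 10 CPM or more with the largest log2 difference. ALDH1A3, which makes retinoic acid from retinaldehyde, had 34.5 and 82.8 CPM in VCAM1-high cells, against 13.4 and 19.0 CPM in VCAM1-zero cells (log2 difference 1.89 ± 0.10 SE, adjusted p = 1.5e-80). DHRS3, which reduces retinaldehyde back to retinol, had 13.7 and 20.9 CPM in VCAM1-high cells, against 5.80 and 6.24 CPM in VCAM1-zero cells (1.58 ± 0.16, adjusted p = 6.2e-21). For both genes each VCAM1-high sum lay above both VCAM1-zero sums. CXCL14 had 50.4 and 73.1 CPM in VCAM1-high cells, against 22.8 and 26.6 CPM in VCAM1-zero cells (1.37 ± 0.09, adjusted p = 1.1e-49), which is 2.58-fold. CXCL14 was named as a marker of these cells from these data, so its difference is no independent support for the name.

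BMPER, a secreted protein that binds bone morphogenetic proteins, had 52.4 and 132 CPM in VCAM1-high cells, against 22.9 and 40.3 CPM in VCAM1-zero cells (1.57 ± 0.08, adjusted p = 1.7e-89). ANGPTL4, a secreted inhibitor of lipoprotein lipase, had 79.2 and 36.6 CPM in VCAM1-high cells, against 29.1 and 10.7 CPM in VCAM1-zero cells (1.62 ± 0.10, adjusted p = 4.4e-59). CEMIP, which takes part in breaking down hyaluronan, was the most abundant of the 15, at 181 and 490 CPM in VCAM1-high cells, against 94.99 and 187 CPM in VCAM1-zero cells (1.24 ± 0.06, adjusted p = 1.2e-100). For CEMIP the VCAM1-high sum of library 1 lay just below the VCAM1-zero sum of library 2. GPM6B, a proteolipid membrane protein, had 24.6 and 42.4 CPM in VCAM1-high cells, against 6.80 and 12.1 CPM in VCAM1-zero cells (1.87 ± 0.12, adjusted p = 9.0e-52). PPARG, the main transcription factor of fat cell formation, had 58.3 and 36.4 CPM in VCAM1-high cells, against 19.1 and 19.0 CPM in VCAM1-zero cells (1.31 ± 0.10, adjusted p = 2.8e-36). The rest were GGT5, an enzyme that acts on the leukotriene C4, WDR86, the adhesion protein SDK1, GLIPR1, the interferon-inducible EPSTI1, ANKRD44 and the semaphorin co-receptor PLXNA4, with log2 differences between 1.22 and 1.56. All 15 were higher in both libraries, as the rule for a call requires.

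The size of a difference was often unlike in the 2 libraries. For ALDH1A3 the log2 difference was 1.38 in library 1 and 2.18 in library 2, and for PPARG it was 1.63 and 0.99. Both pairs lie further apart than the SEs, which take their spread from all genes. Ranked by the smaller of the library differences among genes at 10 CPM or more, the 10 genes whose pattern was most like that of VCAM1 were ALDH1A3, GPM6B, ANGPTL4, DHRS3, BMPER, GGT5, WDR86, SDK1, GLIPR1 and ANKRD44. GPM6B led this order, at 1.86 in each library.

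**Figure D1:**
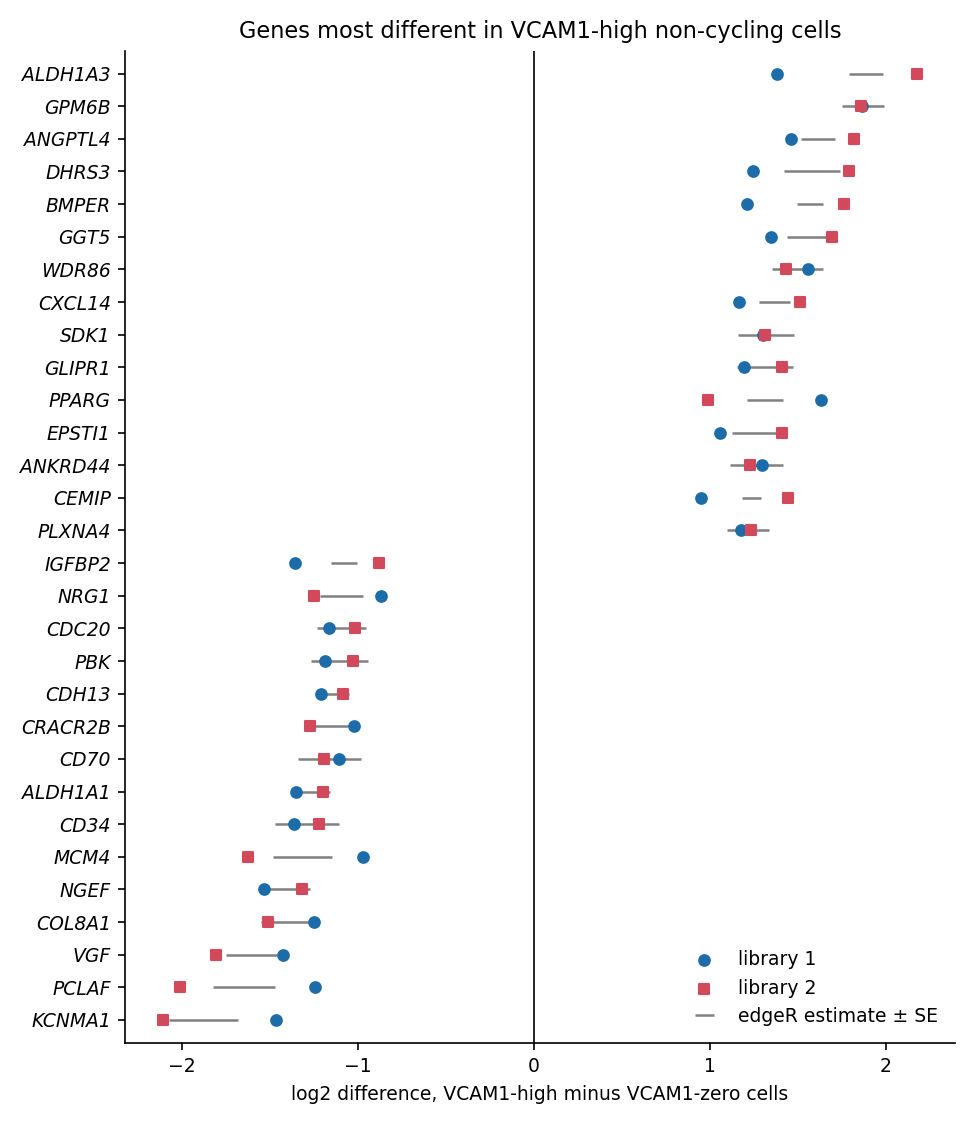
Log2 difference of VCAM1-high minus VCAM1-zero cells (horizontal axis) for the 15 genes most raised and the 15 most lowered, with a circle for library 1, a square for library 2 and a grey bar for the edgeR estimate ± SE. All 30 genes had the same sign in both libraries, as the rule for a call requires. For genes such as ALDH1A3 the libraries lie outside the SE.

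The genes most lowered in VCAM1-high cells, taken in the same way, were led by KCNMA1, PCLAF, VGF, COL8A1 and NGEF. ALDH1A1, which like ALDH1A3 makes retinoic acid, had 18.1 and 20.2 CPM in VCAM1-high cells, against 47.1 and 48.2 CPM in VCAM1-zero cells (-1.27 ± 0.11, adjusted p = 2.3e-29). The 2 enzymes thus moved in opposite directions. CD34, a surface sialomucin of fresh fat progenitors and of blood stem cells, was low throughout, at 5.46 and 6.06 CPM in VCAM1-high cells, against 14.4 and 14.8 CPM in VCAM1-zero cells (-1.29 ± 0.18, adjusted p = 1.3e-10). CDH13, a cadherin anchored to the membrane by lipid, had 35.0 and 48.1 CPM in VCAM1-high cells, against 82.3 and 106 CPM in VCAM1-zero cells (-1.13 ± 0.08, adjusted p = 5.2e-41). IGFBP2, a secreted binding protein of insulin-like growth factors, had 43.2 and 61.4 CPM in VCAM1-high cells, against 113 and 117 CPM in VCAM1-zero cells (-1.08 ± 0.08, adjusted p = 9.9e-43). KCNMA1, the pore subunit of a calcium-activated potassium channel, showed the largest fall of these genes, at 4.22 and 4.41 CPM in VCAM1-high cells, against 11.9 and 19.9 CPM in VCAM1-zero cells (-1.88 ± 0.20, adjusted p = 1.8e-19).

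For these 5 genes both VCAM1-high sums lay below both VCAM1-zero sums. The others with log2 differences between -1.65 and -1.09 were the secreted neuropeptide precursor VGF, the collagen VIII chain COL8A1, NGEF, the CD27 ligand CD70, CRACR2B, the ERBB ligand NRG1, and 4 genes of the cell cycle, PCLAF, MCM4, PBK and CDC20. CDC20, an activator of the complex that ends mitosis, had 12.2 and 10.3 CPM in VCAM1-high cells, against 27.8 and 21.7 CPM in VCAM1-zero cells (-1.09 ± 0.14, adjusted p = 1.0e-12).

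The classes were then set side by side. For all 15 raised and all 15 lowered genes the level in other VCAM1-detected cells was between those of VCAM1-zero and VCAM1-high cells in both libraries. These genes were picked for their difference between the outer classes, so the order is a description and supports nothing further. The members themselves were split at their median VCAM1 share into an upper group of 112 and 140 cells, at 421 and 391 CPM of VCAM1, and a lower group of 113 and 141 cells, at 260 and 255 CPM. Of the 15 raised genes, 7 were higher in the upper than in the lower group in both libraries and 1 was lower in both. CEMIP had 224 and 624 CPM in the upper group, against 137 and 361 CPM in the lower group. CXCL14 had 55.2 and 68.4 CPM in the upper group, against 45.6 and 77.6 CPM in the lower group, so the libraries went opposite ways. Of the 15 lowered genes, 7 were lower in the upper group in both libraries and 2 were higher in both. These splits were not tested.

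**Figure D2:**
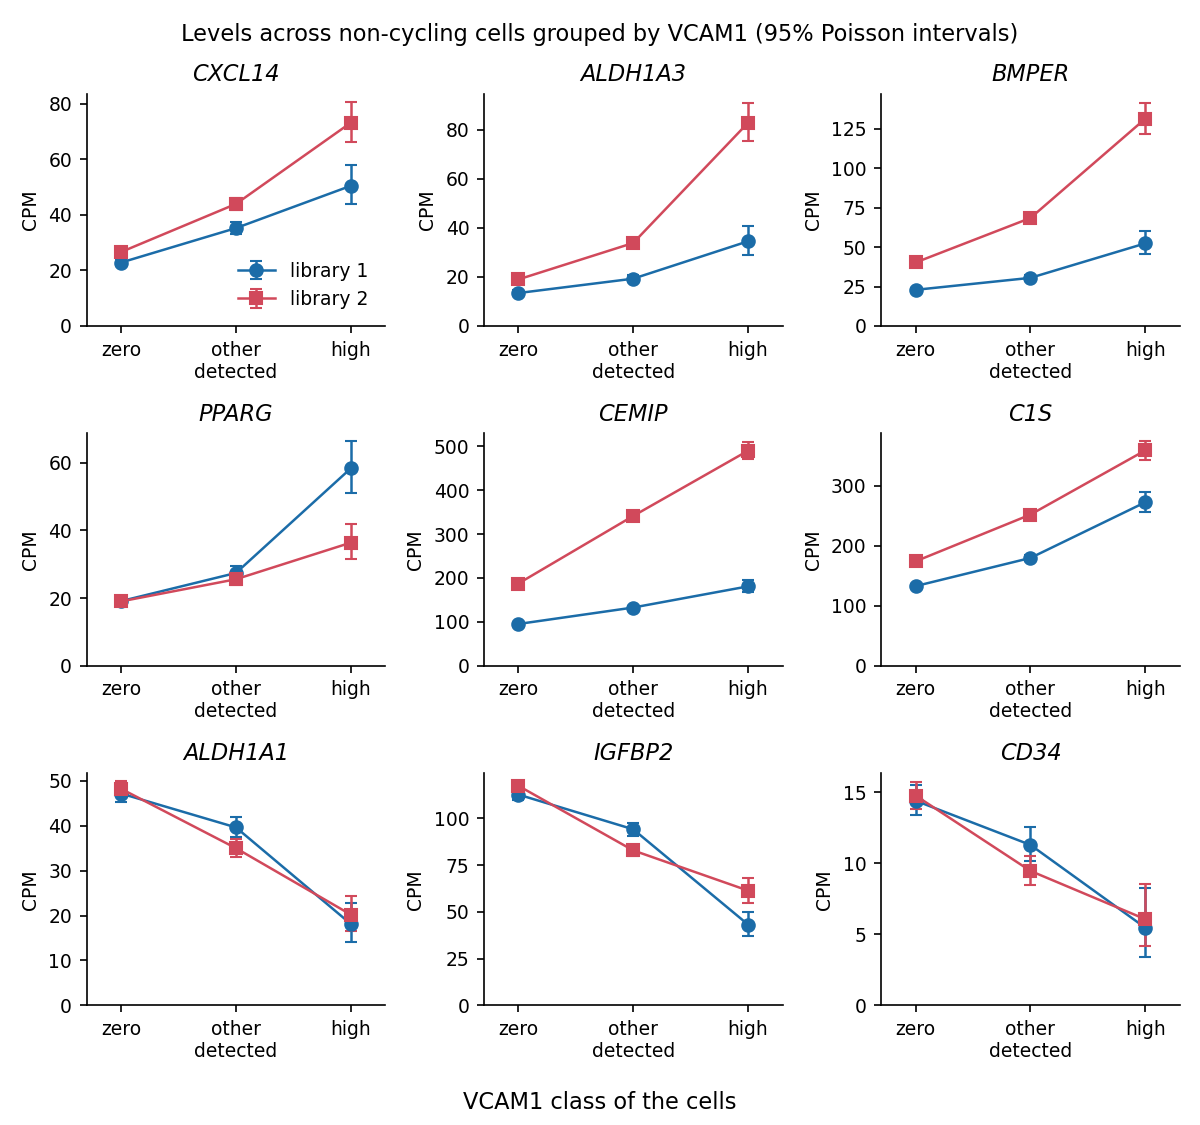
CPM (vertical axes, from 0) of 9 genes in VCAM1-zero, other VCAM1-detected and VCAM1-high cells of each library, with 95% exact Poisson intervals that cover counting error only. In both libraries CXCL14, ALDH1A3, BMPER, PPARG, CEMIP and C1S step up across the classes, while ALDH1A1, IGFBP2 and CD34 step down.

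Genes of inflammation were read from lists of chemokines, cytokines and NF-kB targets. Counts in these and the later lists stand beside 1.92% called higher and 2.72% lower over all genes, so 1 or 2 calls say little about a list. Of 13 chemokine genes tested, 3 were higher and 2 lower, with a median log2 difference of 0.46, beside 0.00 over all genes. Besides CXCL14, AMCF-II, a pig neutrophil-attracting chemokine, had 135 and 101 CPM in VCAM1-high cells, against 72.6 and 55.5 CPM in VCAM1-zero cells (0.92 ± 0.07, adjusted p = 7.1e-40). CCL19, which guides T cells and dendritic cells in lymph nodes, was scarce but higher, at 10.4 and 6.25 CPM in VCAM1-high cells, against 1.97 and 1.47 CPM in VCAM1-zero cells (2.29 ± 0.27, adjusted p = 3.6e-15). The lowered chemokines were CCL17 and CCL5. CCL17 had 0.497 and 0.184 CPM in VCAM1-high cells, from 2 UMIs and 1 UMI, against 1.81 and 1.66 CPM in VCAM1-zero cells. It passed the filter on low counts through VCAM1-zero cells. DESeq2 called 3 genes of the list higher and 0 lower. The CCL5 difference came mainly from library 2, at a log2 of -1.23, while library 1 gave -0.18. CCL2, the abundant monocyte chemokine, had 1404 and 631 CPM in VCAM1-high cells, against 1213 and 586 CPM in VCAM1-zero cells, a log2 difference of 0.20 that is below the limit.

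Of 20 genes of cytokines and prostaglandin synthesis, 6 were higher and 1 lower, with a median log2 difference of 0.14. IL6 had 108 and 30.7 CPM in VCAM1-high cells, against 51.9 and 15.2 CPM in VCAM1-zero cells (1.07 ± 0.09, adjusted p = 2.0e-33). Its level differed more between the libraries than between the classes, yet the log2 difference was 1.08 and 1.07 within them. PTGIS, the prostacyclin synthase, had 26.1 and 47.0 CPM in VCAM1-high cells, against 13.3 and 23.9 CPM in VCAM1-zero cells (1.02 ± 0.11, adjusted p = 5.0e-19). The other raised genes were TNFSF10, LIF, LCN2 and PTX3, and the lowered one was SAA3, which was under 3 CPM in every sum. The direction of SAA3 turned, to log2 differences of 0.11 with the top 10% of the pool as members and 0.40 with classes set from VCAM1 thinned to 5000 UMIs. In the lower 50% of the pool by cycle genes 3 of 19 genes of the list were higher, and DESeq2 called 4. IL33, an alarmin held in the nucleus, had 221 and 233 CPM in VCAM1-high cells, against 295 and 336 CPM in VCAM1-zero cells, a log2 difference of -0.43 that is below the limit in size.

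NF-kB is the known inducer of VCAM1, and 2 of 25 genes of its subunits, inhibitors and targets passed, both higher, with a median log2 difference of 0.26. In this list 13 genes had an unadjusted p under 0.05 in the edgeR test. An adjusted p under 0.05 was reached by 8 genes, of which 2 were called. SOD2, the mitochondrial superoxide dismutase, had 99.6 and 62.3 CPM in VCAM1-high cells, against 58.9 and 38.9 CPM in VCAM1-zero cells (0.76 ± 0.07, adjusted p = 9.5e-22). NFKB2, the p100 subunit, had 18.6 and 16.5 CPM in VCAM1-high cells, against 12.2 and 12.3 CPM in VCAM1-zero cells (0.55 ± 0.14, adjusted p = 0.0012). Of 27 receptors of TNF, IL-1 and Toll-like ligands, none was called by edgeR or by DESeq2, while 10 had an unadjusted p under 0.05. Over all genes 3006 of 15061 had such a p. Of 16 genes of leukocyte adhesion, 2 passed, both lower: ITGA4, the VLA-4 subunit that binds VCAM1, with 0 and 0.367 CPM in VCAM1-high cells, against 1.30 and 1.67 CPM in VCAM1-zero cells, and ICAM3, at log2 differences of -1.29 in library 1 and -0.24 in library 2. ITGA4 passed the filter on low counts through VCAM1-zero cells alone. Of the list's 8 genes at 10 CPM or more none was called by edgeR, and DESeq2, the top 10% of the pool and the lower 50% of the pool by cycle genes each gave no call in the list, in which 7 genes had an unadjusted p under 0.05. ICAM1, the adhesion protein most often raised together with VCAM1 on endothelium, had 112 and 101 CPM in VCAM1-high cells, against 88.1 and 70.5 CPM in VCAM1-zero cells. Its log2 difference of 0.47 ± 0.07 (adjusted p = 1.1e-10) fell just short of the size required for a call.

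Of 27 interferon response genes, 3 were higher, with a median log2 difference of 0.22. MX1, an antiviral GTPase, had 29.8 and 29.4 CPM in VCAM1-high cells, against 20.01 and 21.01 CPM in VCAM1-zero cells (0.56 ± 0.11, adjusted p = 1.5e-05). IFI6 had log2 differences of 1.32 in library 1 and 0.60 in library 2, and USP18 of 0.39 and 0.83. DESeq2, classes set from thinned VCAM1, the top 2.5% of the pool and the lower 50% of the pool by cycle genes each called 1 gene of the list. In antigen presentation 1 of 19 genes was higher, NLRC5, the activator of class I genes, and 1 lower, SLA-DMB, which was under 3 CPM in every sum.

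Of the lists with at least 10 genes tested, complement had the highest share of raised genes, at 7 of 18, with a median log2 difference of 0.51. At 10 CPM or more it was 7 of 11. C1S, a protease of the first complement component, had 273 and 359 CPM in VCAM1-high cells, against 133 and 174 CPM in VCAM1-zero cells (1.08 ± 0.06, adjusted p = 1.5e-80). SERPING1, the inhibitor of that protease, had 224 and 236 CPM in VCAM1-high cells, against 133 and 127 CPM in VCAM1-zero cells (0.87 ± 0.06, adjusted p = 5.2e-48). For both genes each VCAM1-high sum lay above both VCAM1-zero sums. CFD, the fat-derived protease of the alternative pathway, had 34.5 and 36.0 CPM in VCAM1-high cells, against 18.5 and 15.8 CPM in VCAM1-zero cells (1.10 ± 0.11, adjusted p = 1.7e-21). The other raised genes were MASP1, C1R, C2 and C4A. DESeq2 called 4 of the genes higher, and in the lower 50% of the pool by UMIs of 14 further cycle genes 4 of 16 were called.

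**Figure D3:**
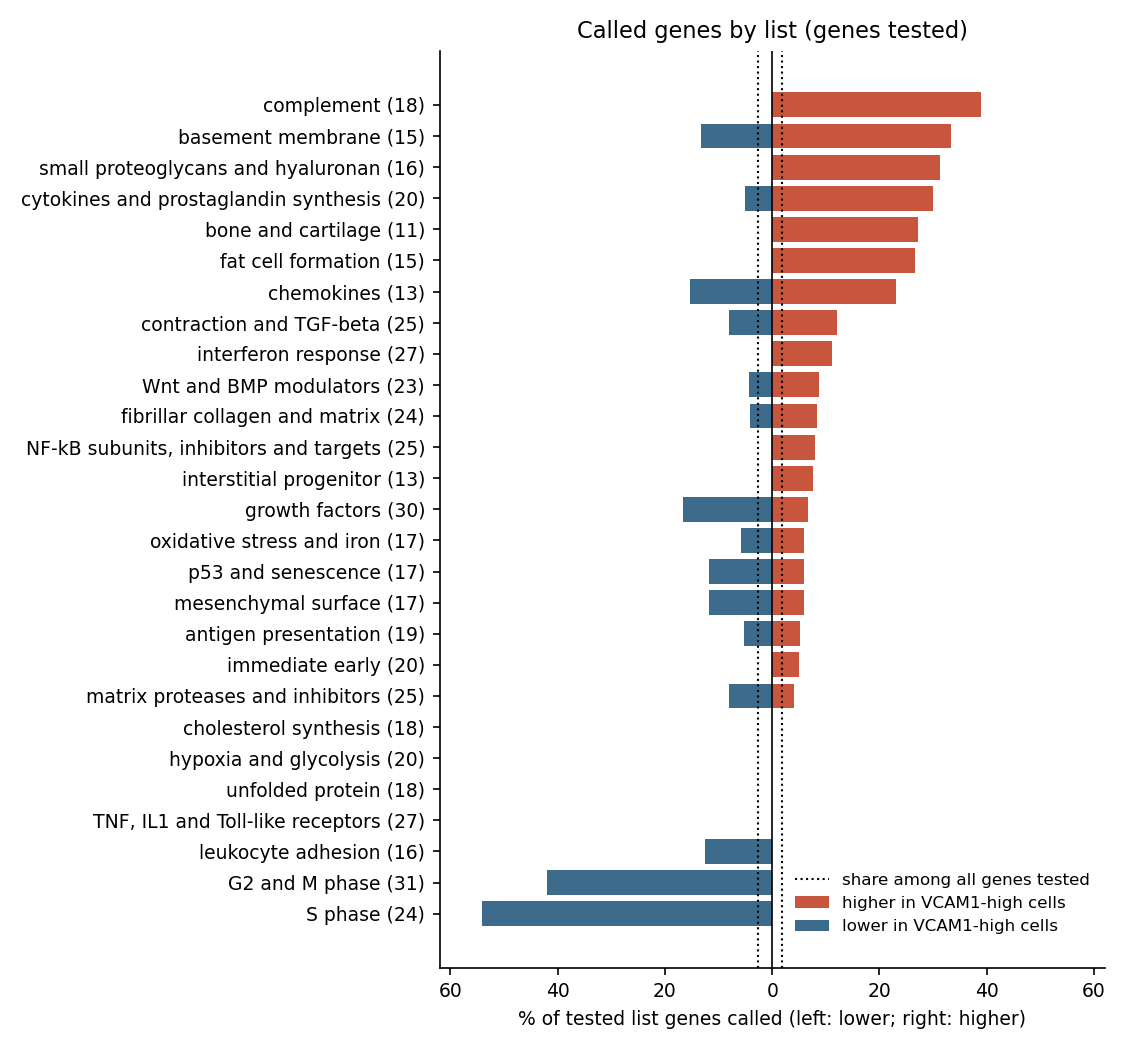
Share of the tested genes of each functional list with at least 10 genes tested that were called higher (to the right) or lower (to the left) in VCAM1-high cells, with the number of genes tested after each name and dotted lines at the shares over all genes, 1.92% higher and 2.72% lower. Of the lists drawn, complement has the longest bar to the right, with 7 of 18 genes, and the 2 cycle lists have the longest bars to the left, with 13 of 24 and 13 of 31.

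Matrix genes moved by list in different ways. Small proteoglycans and hyaluronan genes had 5 of 16 higher, with a median log2 difference of 0.27. DCN, the collagen-binding proteoglycan decorin, had 1150 and 1247 CPM in VCAM1-high cells, against 797 and 763 CPM in VCAM1-zero cells (0.66 ± 0.05, adjusted p = 1.4e-41). LUM, the related lumican, had 730 and 831 CPM in VCAM1-high cells, against 529 and 495 CPM in VCAM1-zero cells (0.65 ± 0.05, adjusted p = 2.8e-37). The other raised ones were CEMIP, OMD and ASPN. With classes set from thinned VCAM1 1 of 16 was called, and in the lower 50% of the pool by cycle genes 3 were called and the median was -0.008. Of 15 basement membrane genes 5 were higher and 2 lower. The raised LAMA4, a laminin chain, had 100.1 and 175 CPM in VCAM1-high cells, against 57.1 and 102 CPM in VCAM1-zero cells (0.83 ± 0.06, adjusted p = 3.5e-35). The raised ones also included LAMA2, COL4A1, COL4A2 and COL4A3, and the lowered ones were COL4A5 and LAMA5, so chains of type IV collagen and of laminin went both ways. With classes set from thinned VCAM1 1 gene of this list was higher, and in the lower 50% of the pool by cycle genes 2 were. COL4A3 had log2 differences of 0.93 in library 1 and 0.41 in library 2.

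Of 24 fibrillar collagen and related matrix genes, 2 were higher and 1 lower, with a median log2 difference of 0.19. COL3A1, the type III collagen chain, had 1572 and 2442 CPM in VCAM1-high cells, against 1097 and 1667 CPM in VCAM1-zero cells (0.57 ± 0.05, adjusted p = 1.45e-33). COL12A1 was the other raised gene, and the microfibril gene MFAP5, under 5 CPM, was lower by log2 differences of -0.91 in library 1 and -2.01 in library 2. No gene of the list was called higher against all other pool cells, with classes set from thinned VCAM1 or in the lower 50% of the pool by cycle genes, where COL3A1 had log2 differences of 0.49, 0.47 and 0.43. COL1A1, with 1549 and 1929 CPM in VCAM1-high cells, against 1234 and 1563 CPM in VCAM1-zero cells, had a log2 difference of 0.35, below the limit. Of 25 proteases and inhibitors, SERPINF1 was higher, and the collagenase MMP1 and SERPINE2 were lower. With classes set from thinned VCAM1 none of the 3 was called.

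Genes of contraction and TGF-beta had 3 of 25 higher and 2 lower. TPM1, a tropomyosin of actin filaments, had 697 and 757 CPM in VCAM1-high cells, against 385 and 503 CPM in VCAM1-zero cells (0.76 ± 0.05, adjusted p = 6.3e-50). LTBP1, which stores latent TGF-beta in the matrix, had 140 and 203 CPM in VCAM1-high cells, against 89.0 and 123 CPM in VCAM1-zero cells (0.73 ± 0.06, adjusted p = 1.8e-30), and TGFBI was the other raised gene. ACTA2, the smooth muscle actin that marks myofibroblasts, had 97.6 and 44.8 CPM in VCAM1-high cells, against 104 and 153 CPM in VCAM1-zero cells. Its call rested on library 2, with a log2 difference of -1.72, while library 1 gave -0.07. The other lowered gene, the smooth muscle actin ACTG2, was under 7 CPM in every sum, and its log2 difference turned to 0.073 with the top 10% of the pool as members. In the lower 50% of the pool by cycle genes none of the list was higher, 3 genes were lower and the median was -0.15. TPM1 and LTBP1 there lay just short of the log2 difference of 0.5 required.

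Of 15 genes of fat cell formation 4 were higher, with a median log2 difference of 0.46. Besides PPARG, PLIN2, which coats lipid droplets, had 99.8 and 52.0 CPM in VCAM1-high cells, against 58.2 and 33.5 CPM in VCAM1-zero cells (0.75 ± 0.08, adjusted p = 2.9e-20). APOE had log2 differences of 0.43 in library 1 and 1.13 in library 2, and ZNF423, a factor of fat cell precursors, of 0.40 and 0.72. Of 11 genes of bone and cartilage 3 were higher. RUNX2, the master factor of bone formation, had 111 and 172 CPM in VCAM1-high cells, against 61.8 and 104 CPM in VCAM1-zero cells (0.81 ± 0.06, adjusted p = 2.0e-34). SOX6, a cartilage factor, had 27.3 and 24.1 CPM in VCAM1-high cells, against 11.3 and 11.7 CPM in VCAM1-zero cells (1.18 ± 0.12, adjusted p = 5.9e-19). MGP was under 2 CPM in every sum, with log2 differences of 0.55 in library 1 and 2.73 in library 2. It passed the filter on low counts through VCAM1-high cells. Of the list's 6 genes at 10 CPM or more 2 were higher, and DESeq2 called 2 genes of the list.

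Of 13 genes that mark interstitial progenitors of fat, EFEMP1 was called, at 157 and 251 CPM in VCAM1-high cells, against 85.7 and 114 CPM in VCAM1-zero cells (1.06 ± 0.06, adjusted p = 4.4e-67). Of 17 mesenchymal surface genes the aminopeptidase ANPEP (CD13) was higher and CD9 and CSPG4 were lower. CD9, a tetraspanin, had 59.6 and 58.2 CPM in VCAM1-high cells, against 98.4 and 92.2 CPM in VCAM1-zero cells (-0.65 ± 0.08, adjusted p = 5.7e-16). Of 8 genes of lymphoid tissue stroma, CCL19 and GREM1 were higher. Of 30 growth factor genes 2 were higher, IGFBP4 and PTN, and 5 were lower, among them NRG1, IGFBP2 and IGFBP5. PTN, the heparin-binding pleiotrophin, had 105 and 122 CPM in VCAM1-high cells, against 63.6 and 73.5 CPM in VCAM1-zero cells (0.77 ± 0.07, adjusted p = 8.2e-28). IGFBP5 had 9.19 and 13.0 CPM in VCAM1-high cells, against 18.6 and 25.5 CPM in VCAM1-zero cells (-0.94 ± 0.14, adjusted p = 2.5e-09). Of 23 modulators of Wnt and BMP signalling, SFRP4 and GREM1 were higher and FST was lower.

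Of 24 S phase genes beyond those of the rule 13 were lower in VCAM1-high cells, with a median log2 difference of -0.81, and of 31 G2 and M phase genes 13 were lower, with a median of -0.71. The other 11 and 18 were not called, and DESeq2 called 3 in each list. MCM4, a subunit of the replicative helicase, had 8.94 and 5.69 CPM in VCAM1-high cells, against 17.8 and 18.4 CPM in VCAM1-zero cells (-1.31 ± 0.17, adjusted p = 4.0e-13). Cells with no UMI of the 5 genes of the rule thus still differed in other cycle RNA between the classes. In the lower 50% of the pool by UMIs of 14 further cycle genes, 1 of 21 S phase genes was lower and the median was -0.33, and for 24 G2 and M phase genes the median was -0.04. In those cells 152 genes were called higher and 165 lower, of which 138 and 116 were also called in the whole pool. PCLAF, PBK and CDC20 were no longer called there, while the other 27 of the 30 named genes were. The 14 genes that chose these cells include CDC20 and other members of both lists, such as PCNA and TPX2. The loss of CDC20 and the medians nearer to none were thus partly fixed by that choice. The part that cycle state plays in the other differences was not tested further.

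Markers of other cell types stood at low levels in both classes. The summed level of 14 endothelial markers was 64.6 and 86.7 CPM in VCAM1-high cells, against 88.9 and 119 CPM in VCAM1-zero cells. Of these, 7 were at 0 in VCAM1-high cells of both libraries, and ERG, at 33.8 and 50.5 CPM in VCAM1-high cells, against 51.2 and 79.4 CPM in VCAM1-zero cells, carried most of the sum. Of the 6 endothelial markers tested ERG, EMCN, FLT1 and ROBO4 were lower, and SOX18 was higher. ROBO4 had no UMI in VCAM1-high cells and passed the filter on low counts through VCAM1-zero cells alone. EMCN had 1.24 and 1.65 CPM in VCAM1-high cells, against 7.06 and 7.52 CPM in VCAM1-zero cells. SOX18 had 18.4 and 19.3 CPM in VCAM1-high cells, against 13.6 and 12.8 CPM in VCAM1-zero cells (0.56 ± 0.13, adjusted p = 0.00058). No endothelial marker was called higher with the top 2.5% or 10% of the pool or against all other pool cells. DESeq2 called 0 endothelial markers higher and 2 lower. The 12 mural cell markers summed to 49.2 and 59.7 CPM in VCAM1-high cells, against 36.5 and 47.8 CPM in VCAM1-zero cells, with RGS5 and HIGD1B at 0. Of these ABCC9, a potassium channel subunit, was higher, at 19.9 and 32.7 CPM in VCAM1-high cells, against 8.27 and 16.7 CPM in VCAM1-zero cells (1.11 ± 0.12, adjusted p = 1.8e-17). KCNJ8, which forms a channel with ABCC9, was also higher, at 7.20 and 9.74 CPM in VCAM1-high cells, against 4.56 and 5.98 CPM in VCAM1-zero cells (0.73 ± 0.20, adjusted p = 0.0056). CSPG4 (NG2) was lower, at 8.94 and 9.001 CPM in VCAM1-high cells, against 12.6 and 14.2 CPM in VCAM1-zero cells (-0.54 ± 0.16, adjusted p = 0.013). DESeq2 called 1 mural marker higher and 0 lower.

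The 16 macrophage markers summed to 83.9 and 37.5 CPM in VCAM1-high cells, against 73.2 and 30.6 CPM in VCAM1-zero cells, with 7 at 0, among them PTPRC and the C1Q chains. ITGAM was found almost only in library 1, at 34.8 and 0.184 CPM in VCAM1-high cells, against 29.8 and 0.344 CPM in VCAM1-zero cells. CD4 too was found almost only in library 1, at 16.4 and 0.184 CPM in VCAM1-high cells, against 8.75 and 0.0626 CPM in VCAM1-zero cells. Unlike ITGAM, CD4 was called higher (0.94 ± 0.26, adjusted p = 0.0044), but its sign in library 2 rested on 1 UMI in VCAM1-high cells. Lymphocyte, mesothelial, epithelial, muscle precursor, fat cell and Schwann cell markers summed to at most 89.4 CPM in VCAM1-high cells of either library. The fat cell sum was 5.96 and 3.31 CPM in VCAM1-high cells, against 5.16 and 5.35 CPM in VCAM1-zero cells. Of these markers PLIN1, LEP and PCK1 had no UMI in VCAM1-high cells. The mesothelial sum was 89.4 and 80.1 CPM in VCAM1-high cells, against 102 and 87.1 CPM in VCAM1-zero cells, mainly from KRT7. Among the markers of these cell types KRT19, NCAM1 and OCLN were called lower, OCLN with no UMI in VCAM1-high cells. DESeq2 called no gene of the lymphocyte, mesothelial, epithelial and Schwann cell lists, which hold CD4 and these 3 genes. The part of these cell types in the differences was not tested.

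Per cell, CXCL14 was found in part of the members and C1S in most of them. After thinning to 5000 UMIs, CXCL14 was found in 14.2% (95% exact interval 9.94 to 19.5) and 21.7% (17.0 to 27.0) of VCAM1-high cells, against 8.09% and 9.62% of VCAM1-zero cells. Without thinning the shares were 38.2% and 40.6% of VCAM1-high cells, against 21.2% and 21.5% of VCAM1-zero cells. C1S was found after thinning in 70.7% and 77.6% of VCAM1-high cells, against 44.0% and 52.5% of VCAM1-zero cells. Without thinning its shares were 89.3% and 97.5% of VCAM1-high cells, against 75.4% and 81.5% of VCAM1-zero cells. The intervals cover counting error only, and RNA free in the droplets was not estimated, since no class of cells known to lack these genes was present.

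The same ranking that defined the members was then applied to other genes, chosen after their values were seen. Of VCAM1-high cells, 16.9% and 18.1% were also in the top 5% of the pool for C1S, against 3.76% and 3.14% of VCAM1-zero cells. For CXCL14 it was 11.6% and 12.8% of VCAM1-high cells, against 3.69% and 3.93% of VCAM1-zero cells. Most members were thus not among the highest cells for either gene. For ICAM1 the shares were 6.67% and 10.3% of VCAM1-high cells, against 5.21% and 4.20% of VCAM1-zero cells. For IL33 they were 2.67% and 2.14% of VCAM1-high cells, against 6.23% and 6.32% of VCAM1-zero cells. These shares are descriptions and were not tested.

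**Figure D4:**
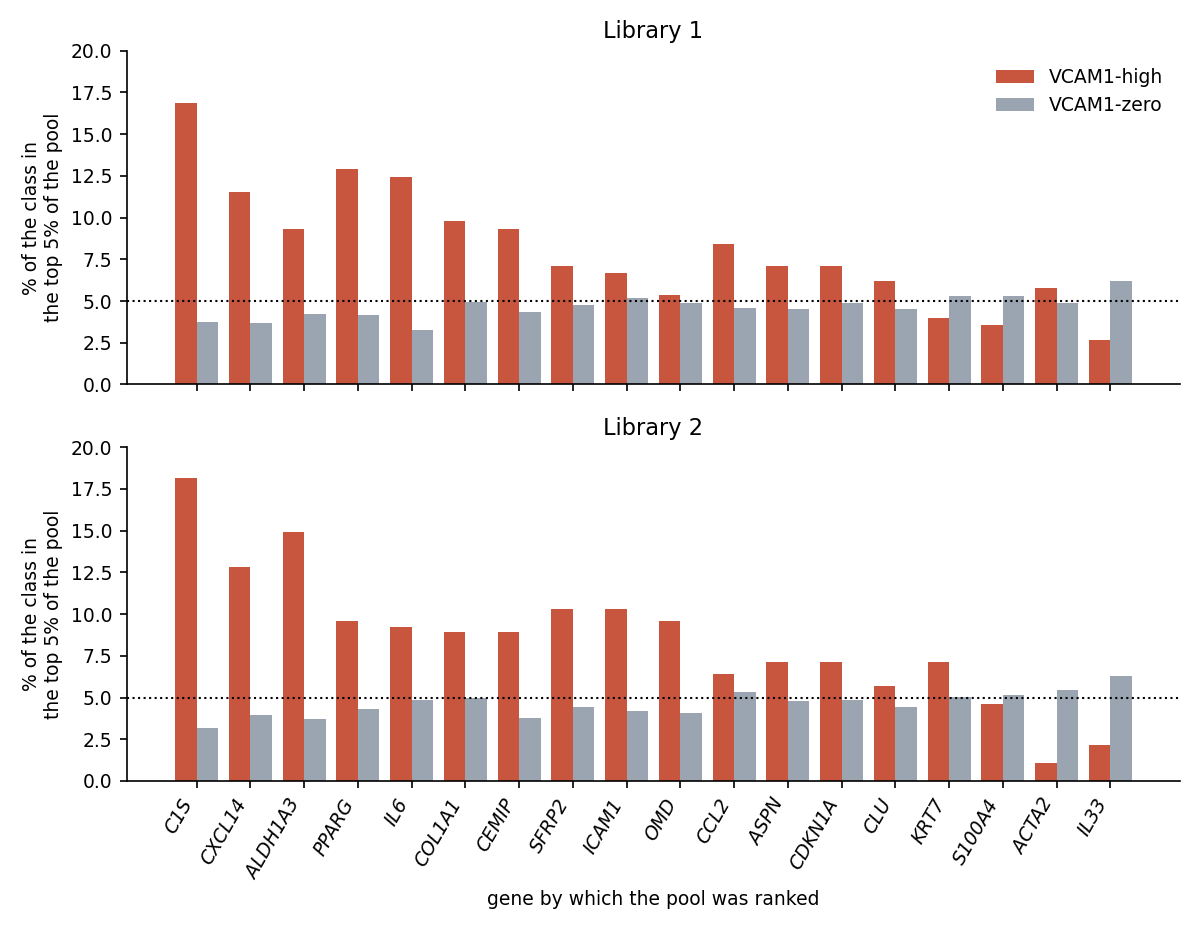
Share of VCAM1-high (red) and VCAM1-zero (grey) cells that were in the top 5% of their pool when cells were ranked by another gene, for libraries 1 and 2, with a dotted line at 5%. C1S has the tallest red bars, at 16.9% and 18.1%, and IL33 has red bars below the grey ones in both libraries.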

How the data were processed

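UMI counts were deposited by the authors as unnormalized whole numbers per gene and barcode, with Cell Ranger 7.0.0 named in the file headers; the submitters' processing notes name version 7.00 and the build Sscrofa11.1. The sources used here give neither the annotation nor the cell calling setting, and the lowest UMI count of a barcode was 500. The members and the 37 gene lists were chosen with earlier results of these data known. Of 723 list genes 700 were found by symbol.

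UMIs of each class were summed per library (4 sums) and tested with edgeR 4.0.16 in R 4.3.3 (TMM scaling, filterByExpr, robust quasi-likelihood fit, library as replicate block because each library holds both classes), with adjustment over all genes tested. The fit was tested on simulated counts. The names follow a rule: the 15 largest calls each way at 10 CPM or more, the 10 genes most like VCAM1, and the called genes of each list, at most 4 each way, without placeholder names. Other genes were named for their known role or level, with their values seen. CPM are UMIs per 1e+06 of the summed cells. DESeq2 1.42.0, other pools, limits and filters were tried as alternatives. The precision per gene is set by 4027714 and 5443946 UMIs in VCAM1-high cells and 49825778 and 63924780 in VCAM1-zero cells. Doublets were not called.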

Additional observations from a re-analysis of the deposited data

Results flagged for a closer look

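VCAM1 was also measured in barcodes outside the pool, which no comparison used. Barcodes with 5000 or more UMIs and a UMI of the 5 cycle genes (5086 and 5979) had 21.6 CPM (95% exact Poisson interval 20.8 to 22.4) of VCAM1 in library 1 and 20.4 CPM (19.6 to 21.1) in library 2, beside 47.3 and 46.0 CPM in the pools. Of these barcodes 90 (1.77%) and 72 (1.2%) were at or above the level of the last member of their library. Barcodes with fewer than 5000 UMIs (2670 and 1358) had 36.0 CPM (30.7 to 42.0) in library 1 and 32.4 CPM (25.1 to 41.2) in library 2. They are listed because VCAM1 was detected in barcodes left out of every comparison, and no more is read from them.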

How the results depend on the processing

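Every class contains the same 2 libraries, and removing the library difference matters most. Without the replicate block edgeR called 0 genes higher and 0 lower. Of 15061 genes 716 then had an unadjusted p under 0.05, a share no larger than that limit alone would give without any difference. DESeq2 called 158 higher and 93 lower. The 50% of the pool lowest in cycle genes, an alternative chosen after seeing the data because a planned stricter cycle filter left 4 and 8 members and was not run, gave 152 higher and 165 lower. With classes set from VCAM1 thinned to 5000 UMIs, 271 genes were lower. The other alternatives (no filter on low counts, top 2.5% or 10%, all other pool cells, at least 10000 UMIs, cells matched on UMIs, without the deepest 8%) kept both counts within 1.5 times 289 and 409. SAA3 reversed to log2 differences of 0.11 with the top 10% and 0.40 with thinned classes, ACTG2 to 0.073 with the top 10%, and COL4A3 to -0.067 with thinned classes, and the cause was not tested. Leaving out either library gives values without a test, and the called genes keep their sign by the rule for a call. Of genes not called, ITGAM was at -0.68 in library 2 alone and KRT7 at -0.047 in library 1 alone. Of 111 named genes called, 49 were called under every alternative other than that without the block, and of the 30 largest 27 were. Depth limits single cells most, since many members rest on 3 or fewer VCAM1 UMIs.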

Other observations

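Several programmes of stress and metabolism had few or no called genes. In the unfolded protein (18 genes), hypoxia and glycolysis (20 genes) and cholesterol synthesis (18 genes) lists no gene was called by edgeR or DESeq2. In each list 8 genes had an unadjusted p under 0.05 in the edgeR test, a larger share than the 3006 of 15061 over all genes. An adjusted p under 0.05 was reached by 6, 4 and 7 genes. All their log2 differences were smaller in size than the 0.5 required for a call. The median log2 differences of these lists were 0.12, 0.03 and 0.16. Of 20 immediate early genes FOSB was higher, at 112 and 139 CPM in VCAM1-high cells, against 79.9 and 100.3 CPM in VCAM1-zero cells (log2 difference 0.52 ± 0.06 SE). Of 17 genes of oxidative stress and iron, CAT, the catalase, was higher, at 71.0 and 66.7 CPM in VCAM1-high cells, against 44.8 and 46.6 CPM in VCAM1-zero cells, and SRXN1 was lower. Of 17 genes of p53 and senescence, CDKN1C, an inhibitor of cyclin-dependent kinases, was higher, at 64.8 and 37.8 CPM in VCAM1-high cells, against 40.6 and 24.9 CPM in VCAM1-zero cells, and IGFBP5 and LMNB1 were lower.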
